A study of Mus musculus with 6 samples.

Results

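The genes described here are 38 genes of TGF-beta, BMP and Smad signaling, a list of named pathway genes with no threshold on their values, drawn up with earlier results of these data known: ligands and their extracellular regulators, receptors, Smad proteins and the Id target genes. They are 38 of 22527 gene symbol entries on the array, and they were read by 85 of its 45077 probe sets. On this array a gene's transcripts are read by probe sets, each made of several short probes. For 11 of the 38 genes there was 1 probe set, and for the other 27 there were up to 6. Cerebral cortex was taken from 6 male mice, 2 in each of 3 groups, each labelled as 16 weeks old. The methods name mice of this age, then acclimatization, administration and tests, after which the brains were taken. The label is thus read as the age at the start, and the mice were older when the cortex was taken. SAMR1 + Water is the senescence-resistant strain and served as the normally aging group, SAMP8 + Water is the senescence-accelerated strain (SAMP8 control), and SAMP8 + STEE is that strain given sugarcane top ethanolic extract by mouth at 20 mg/kg (STEE-fed SAMP8). Administration ran for 30 days and went on through 8 days of behavioral tests. According to the methods, all groups also drank the thymidine analog BrdU during part of this time and performed the tests. SAMP8 and SAMR1 are inbred strains that differ at many loci, so a difference between them is not that of a single gene, and the extract was given to SAMP8 only.

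Ligands of this superfamily bind a complex of type II and type I receptor kinases at the cell surface. The type II receptor phosphorylates the type I receptor, which phosphorylates receptor-regulated Smads: Smad2 and Smad3 downstream of TGF-beta, activin and Nodal, and Smad1, Smad5 and Smad9 downstream of BMPs. These join Smad4 and enter the nucleus, where they act on target genes such as the Id genes, and Smad6 and Smad7 inhibit the relay. In the brain the pathway is known for roles in neural patterning, in the choice between neuronal and astrocytic fates, in adult neurogenesis, and in vessels and glia. Much of the relay runs through phosphorylation, which an array of transcripts does not measure.

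Every level given here is the authors' mean log2 signal of a group, to 2 decimals, and every difference is a difference of such means on the log2 scale. A mean carries no spread, so whether a difference exceeds that between the mice of a group was not tested here, and no error or p-value is given. A gene was read at its brightest probe set, the one with the highest mean over the 3 groups, and counted as past the threshold when its difference was at least 0.25, a fold of 1.19. Rounding of the means can move a difference by up to 0.01. The array as a whole had a median log2 signal of 4.16 in the SAMR1 means and 4.15 in those of each SAMP8 group. Of the 38 genes, 28 lay above the overall median of 4.15, and the 10 at or below it (*Tgfb1*, *Ltbp1*, *Bmp2*, *Bmp4*, *Nodal*, *Nog*, *Grem1*, *Acvrl1*, *Smad9* and *Smad6*) lay where the array resolves little. The tissue is bulk cortex, in which fewer cells of a type and less RNA per cell cannot be told apart.

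The libraries were set against marker genes of the tissue and of other cells. All 7 genes used from the cerebral cortex list, *Tbr1* and *Fezf2* among them, were above the overall median. The 9 striatal genes, among them *Drd1a*, *Ppp1r1b* and *Penk*, were all above it too, and all 9 had a higher mean in SAMP8 control, 0.32 to 0.89 above SAMR1 with a median of 0.61. Mean log2 signal of this list was 7.72 in SAMR1, 8.32 in SAMP8 control and 8.38 with STEE. Where 3 values follow a gene or list from here on, they are in this order. Oligodendrocyte genes had means of 9.20, 8.94 and 8.93 and a median strain difference of -0.30, with 5 of 8 lower past the threshold. Choroid plexus genes had means of 4.26, 3.89 and 4.04 and a median of -0.18, with 8 of 9 lower, 3 of them past the threshold. Among them *Ttr* read 10.20, 8.24 and 9.33. Hippocampal genes had a median of -0.20 with 8 of 8 lower, 4 of them past the threshold. Meningeal genes had a median of -0.13 with 7 of 8 lower, 2 of them past the threshold. Medians of the other lists were 0.06 for cerebral cortex, 0.08 for neurons, -0.09 for astrocytes, -0.02 for microglia, -0.04 for endothelial cells, 0.01 for pericytes and smooth muscle, and 0.00 for blood. In the cerebral cortex list 2 of 7 genes, *Cux2* (-0.27) and *Neurod6* (-0.25), were lower past the threshold, and 5 were higher short of it. With STEE, the cerebral cortex list had a median of 0.21 with 6 of 7 genes higher, 3 of them past the threshold. The medians of the other lists lay between -0.06 and 0.07. The part of these differences in the values of the pathway genes was not tested.

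In SAMP8 control vs. SAMR1, the comparison of the aging-prone with the normally aging strain, 6 of the 38 genes were past the threshold (15.8%), against 8.09% of all genes. *Inhba*, *Acvr1* and *Smad2* were higher, where 4.25% of all genes were higher, and *Tgfb2*, *Bmpr1b* and *Chrd* were lower, where 3.84% of all genes were lower. All 6 were among the 28 genes above the overall median signal, a share of 21.4%, against 12.0% of all genes above that median. The share of 15.8% depended on how probe sets were combined. With the mean over the probe sets of a gene 2 of the 38 were past the threshold (5.26%, against 5.82% of all genes), and with the median 3 (7.89%, against 5.79%). By sign alone 22 of the 38 were higher, 15 lower and 1 level, and of all genes 10613 were higher and 11057 lower. Their median difference was 0.03, against 0.00 over all genes, and their range was -0.59 to 0.35, where the 5th and 95th percentiles of all genes were -0.22 and 0.22. At the threshold, *Acvr1* at 0.29 was the nearest inside and *Tgfb3* at 0.23 the nearest outside. Of the 85 probe sets 11 were past the threshold (12.9%), against 8.52% of all probe sets.

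**Figure D1:**
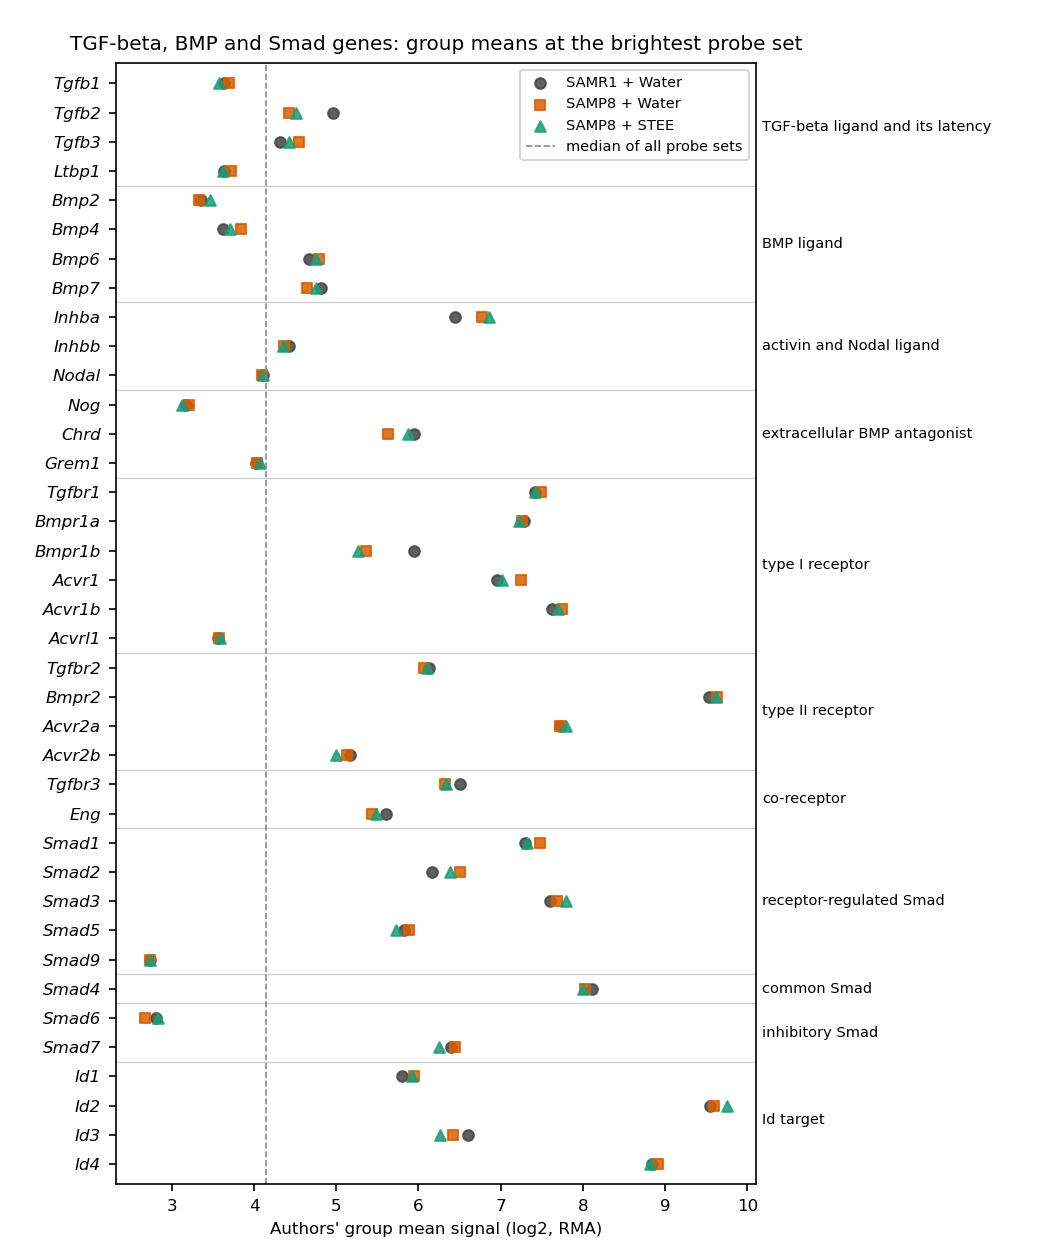
Mean log2 signal of each of the 38 genes at its brightest probe set (horizontal axis), in rows ordered by role, for SAMR1 + Water (circles), SAMP8 + Water (squares) and SAMP8 + STEE (triangles), each the authors' mean of a group with no error bar. The symbols nearly coincide for most genes, while the SAMR1 circle stands to the right of the SAMP8 symbols for *Tgfb2* (4.96 against 4.43 and 4.51) and *Bmpr1b* (5.95 against 5.36 and 5.27). The dashed line is the median of all probe sets, 4.15.

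Promoters are shown for the 3 genes that were lower in SAMP8 control (*Tgfb2*, *Bmpr1b* and *Chrd*), because these were the lower side of the strain difference, and for *Id2*, *Id3* and *Id4*, because Id genes are classical targets that Smads bind. Each is the 250 bases before a transcription start, 5′ to 3′ on the strand of the gene, from RefSeq on GRCm38.p6. *Tgfb2* is chr1:186705990-186706239 on the minus strand, *Bmpr1b* chr3:141982265-141982514 on the minus strand (1 of 3 annotated starts), *Chrd* chr16:20732877-20733126 on the plus strand, *Id2* chr12:25096093-25096342 on the minus strand, *Id3* chr4:136143572-136143821 on the plus strand and *Id4* chr13:48260866-48261115 on the plus strand. Capitals mark GGCGCC, a GC-rich motif bound by BMP-regulated Smads, and CAGAC, which holds the core Smad-binding element, on either strand.
Tgfb2: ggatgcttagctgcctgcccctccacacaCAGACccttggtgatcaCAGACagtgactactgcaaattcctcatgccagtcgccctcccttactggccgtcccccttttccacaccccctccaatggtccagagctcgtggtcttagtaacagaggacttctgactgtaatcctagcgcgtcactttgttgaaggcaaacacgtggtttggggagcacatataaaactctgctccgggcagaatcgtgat
Bmpr1b: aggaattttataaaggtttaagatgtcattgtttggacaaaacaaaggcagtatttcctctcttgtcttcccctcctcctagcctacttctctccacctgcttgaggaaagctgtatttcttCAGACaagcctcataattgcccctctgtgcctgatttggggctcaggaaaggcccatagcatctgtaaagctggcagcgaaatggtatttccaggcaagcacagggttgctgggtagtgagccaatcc
Chrd: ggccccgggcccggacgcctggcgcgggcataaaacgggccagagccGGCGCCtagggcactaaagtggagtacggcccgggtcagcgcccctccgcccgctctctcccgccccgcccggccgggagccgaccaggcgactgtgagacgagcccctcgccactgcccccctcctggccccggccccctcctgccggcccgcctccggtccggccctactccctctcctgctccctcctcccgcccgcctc
Id2: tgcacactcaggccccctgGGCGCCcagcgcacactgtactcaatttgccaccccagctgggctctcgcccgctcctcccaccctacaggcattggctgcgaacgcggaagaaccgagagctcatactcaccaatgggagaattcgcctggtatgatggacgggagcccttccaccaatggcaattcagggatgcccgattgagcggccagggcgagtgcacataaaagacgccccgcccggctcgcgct
Id3: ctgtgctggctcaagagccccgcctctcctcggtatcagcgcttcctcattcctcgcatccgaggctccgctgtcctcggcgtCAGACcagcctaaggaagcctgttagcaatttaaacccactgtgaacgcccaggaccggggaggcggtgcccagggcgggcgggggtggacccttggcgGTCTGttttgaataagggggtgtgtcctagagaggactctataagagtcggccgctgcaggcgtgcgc
Id4: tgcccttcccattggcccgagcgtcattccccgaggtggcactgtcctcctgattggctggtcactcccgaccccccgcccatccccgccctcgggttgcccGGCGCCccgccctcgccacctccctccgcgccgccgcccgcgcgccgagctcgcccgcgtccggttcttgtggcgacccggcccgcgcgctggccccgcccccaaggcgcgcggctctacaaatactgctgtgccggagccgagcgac

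The *Tgfb2* and *Id3* windows held CAGAC at 2 places each and the *Bmpr1b* window at 1, while the *Chrd*, *Id2* and *Id4* windows held GGCGCC at 1 place each. Of the genes higher in SAMP8 control past the threshold, the *Inhba* and *Acvr1* windows held neither motif, and *Smad2* had no matched promoter. RefSeq promoters were matched for 28 of the 38 genes, with 34 starts. *Acvrl1*, *Smad2*, *Nog*, *Bmp7*, *Tgfb3*, *Tgfbr3*, *Bmp2*, *Smad7*, *Smad4* and *Id1* were not matched. GGCGCC was in 9 of the 34 windows (26.5%), against 9.59% of all 32851 promoter windows of this length. CAGAC was in 14 of 34 (41.2%), against 42.2% of all. GTCTAGAC, the palindrome of the core element, was in 0 of 34 and in 0.167% of all. The windows of the pathway genes had a median GC content of 65.2% and all windows 52.4%, and the part of base composition in the share of GGCGCC was not tested. A motif match is a run of letters in a window and not a measured binding site.

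Among the TGF-beta ligands, *Tgfb2* stood lower in both SAMP8 groups. Its brightest probe set read 4.96 in SAMR1, 4.43 in SAMP8 control and 4.51 with STEE, a strain difference of -0.53 (1.44-fold lower) and a difference of 0.08 with STEE. Its other 3 probe sets were lower in SAMP8 control too, by -0.26, -0.13 and -0.28, and remained lower in STEE-fed SAMP8 than in SAMR1, by -0.35, -0.23 and -0.25. These other probe sets read 4.38, 4.12 and 4.03, then 3.36, 3.23 and 3.13, and then 3.14, 2.86 and 2.89. Only the first of them was above the overall median signal in SAMR1, and none was in either SAMP8 group. Thus all 4 probe sets had the same sign in each comparison with SAMR1. The dimmer ones, however, were read largely where the array resolves little. *Tgfb3* read 4.32, 4.55 and 4.43, on the opposite side of SAMR1 at 0.23. *Tgfb1* (3.64, 3.70 and 3.57) and *Ltbp1* (3.63, 3.72 and 3.62), which holds the latent ligand in the matrix, were below the overall median. At these brightest probe sets they differed between groups by at most 0.13. A dimmer *Ltbp1* probe set, at 2.94, 2.88 and 3.04, differed by 0.16 with STEE, opposite in sign to the brightest.

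None of the 4 BMP ligands passed the threshold at its brightest probe set. *Bmp6*, also a regulator of iron balance, read 4.67, 4.79 and 4.76. *Bmp7* read 4.82, 4.65 and 4.75, *Bmp4* 3.62, 3.84 and 3.71, and *Bmp2* 3.36, 3.33 and 3.46. Their strain differences thus ran from -0.17 to 0.22, with 2 genes on each side.

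*Inhba*, which encodes the activin A subunit and is induced by neuronal activity, read 6.44 in SAMR1, 6.77 in SAMP8 control and 6.86 with STEE. The strain difference was 0.33 (1.26-fold higher), and STEE-fed SAMP8 stood 0.42 above SAMR1 (1.34-fold). Its second probe set, at 2.88, 2.86 and 2.92, was dim and differed by -0.02. *Inhbb*, the activin B subunit, read 4.42, 4.36 and 4.35, and its dimmer probe set 4.22, 4.09 and 3.96, a difference of -0.26 between STEE-fed SAMP8 and SAMR1. *Nodal*, an embryonic ligand, read 4.11, 4.10 and 4.11, and 3.19, 3.18 and 3.03 at its dimmer probe set. The brightest *Nodal* values lay within rounding of each other, and the dimmer ones differed by -0.15 with STEE. *Nodal*, *Smad1*, *Smad6* and *Acvr1* are among the genes the study displayed from these same samples, so their values are no independent evidence of a direction.

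Of the secreted BMP antagonists, *Chrd*, which encodes Chordin and binds BMPs outside the cell, read 5.94 in SAMR1, 5.63 in SAMP8 control and 5.87 with STEE. It was lower in SAMP8 control by -0.31 (1.24-fold) and higher with STEE by 0.24 (1.18-fold), which left STEE-fed SAMP8 at -0.07 from SAMR1. *Chrd* had 1 probe set, so no second reading was at hand. *Nog* (3.17, 3.21 and 3.13) and *Grem1* (4.03, 4.04 and 4.07) were at or below the overall median and differed by at most 0.08.

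The type I receptor *Bmpr1b* had the largest strain difference of the 38 genes. Its brightest probe set read 5.95 in SAMR1, 5.36 in SAMP8 control and 5.27 with STEE, which is -0.59 (1.51-fold lower) and -0.09 with STEE. STEE-fed SAMP8 was thus -0.68 from SAMR1 (1.60-fold). Its other 2 probe sets were dim, at 2.78, 2.73 and 2.73 and at 2.68, 2.74 and 2.64, and differed between the strains by -0.05 and 0.06. The lower *Bmpr1b* signal thus rested on 1 of 3 probe sets. The BMP receptor *Bmpr1a* showed no such difference, with 7.28, 7.26 and 7.22 at its brightest probe set and strain differences of -0.03 to 0.15 at its other 5.

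*Acvr1*, which encodes the BMP type I receptor ALK2, stood higher in SAMP8 control than in the other groups at its brightest probe set. It read 6.96 in SAMR1, 7.25 in SAMP8 control and 7.02 with STEE, a strain difference of 0.29 (1.22-fold higher) and -0.23 with STEE (1.17-fold lower). A dimmer probe set, at 4.15, 4.43 and 4.46, had a like strain difference of 0.28 but 0.03 with STEE. The remaining probe set, at 4.72, 4.64 and 4.66, differed by -0.08 and 0.02. The lower mean with STEE was therefore seen at 1 of 3 probe sets of *Acvr1*. *Acvr1b*, the activin receptor ALK4, read 7.62, 7.75 and 7.70. *Tgfbr1*, the TGF-beta type I receptor, read 7.42, 7.49 and 7.42, and *Acvrl1*, an endothelial receptor, 3.56, 3.58 and 3.59.

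**Figure D2:**
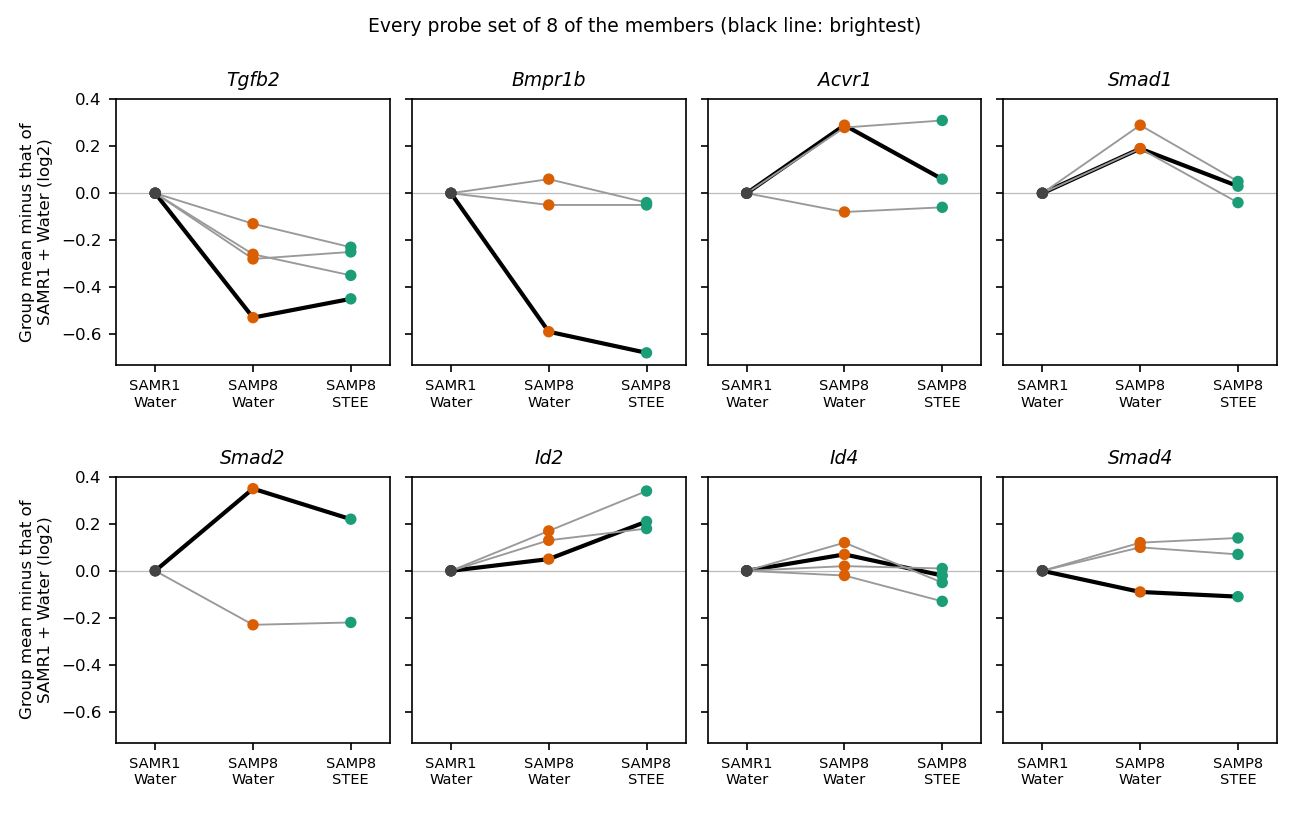
Each line is a probe set of 1 of 8 genes (of the 27 with several probe sets), drawn as the group mean minus that of SAMR1 + Water on the log2 scale (vertical axis) over the 3 groups (horizontal axis), with the brightest probe set in black, the others in grey and no error bars. The 4 lines of *Tgfb2* all run below 0 in both SAMP8 groups, the brightest line of *Bmpr1b* runs to -0.59 and -0.68 while its other lines stay near 0, and the lines of *Smad2* run to opposite sides.

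Type II receptors differed little at their brightest probe sets. *Bmpr2*, the BMP type II receptor, read 9.53, 9.63 and 9.62. A dim *Bmpr2* probe set, at 4.12, 3.99 and 4.24, had the difference of 0.25 with STEE that made it the only one of the 85 probe sets past the threshold in that comparison. *Acvr2a* read 7.72, 7.72 and 7.79, *Tgfbr2* 6.13, 6.07 and 6.10, and *Acvr2b* 5.17 in SAMR1 and 5.13 in SAMP8 control, with a difference of -0.13 with STEE. The dimmer *Acvr2b* probe set, at 4.91, 4.66 and 4.65, was lower by -0.25 in SAMP8 control and, against the same SAMR1 mean, by -0.26 with STEE. At their brightest probe sets the co-receptors were both lower in SAMP8 control, short of the threshold. *Tgfbr3* (betaglycan) read 6.51, 6.32 and 6.34, and its dim other probe set 3.37, 3.40 and 3.27, a strain difference of 0.03. *Eng* (endoglin, an endothelial protein) read 5.61, 5.44 and 5.48 with -0.17, and -0.16 at its other probe set. Endothelial marker genes went both ways between the strains, from -0.28 (*Cldn5*) to 0.28 (*Ly6c1*), with 3 of 8 higher and 5 lower, and their part in these values was not tested.

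At their brightest probe sets the 5 receptor-regulated Smads all had SAMP8 control means above those of SAMR1, with differences of 0.01 to 0.35 and a median of 0.09, and *Smad9* at 2.73, 2.74 and 2.74 was within rounding. *Smad2*, a transducer of TGF-beta and activin signals, was the only 1 of them past the threshold, with 6.16 in SAMR1, 6.51 in SAMP8 control and 6.38 with STEE, a strain difference of 0.35 (1.27-fold higher). Its other probe set read 5.35, 5.12 and 5.13, a strain difference of -0.23, so the direction of *Smad2* depended on the probe set. *Smad3*, its close relative, read 7.60, 7.69 and 7.79, which is 0.09 between the strains and 0.10 with STEE. Its next probe set, at 3.75, 3.61 and 3.69, was dim and differed by -0.14 between the strains.

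*Smad1*, a BMP-regulated Smad, had its highest mean in SAMP8 control at all 3 probe sets. The brightest read 7.29 in SAMR1, 7.48 in SAMP8 control and 7.32 with STEE, the next 6.76, 6.95 and 6.72, and the dimmest 4.91, 5.20 and 4.96. The strain differences were 0.19, 0.19 and 0.29, and those with STEE -0.16, -0.23 and -0.24. STEE-fed SAMP8 thus lay within 0.05 of SAMR1 at each *Smad1* probe set, and 1 of them passed the threshold between the strains. Both comparisons use the SAMP8 control arrays, so a high value in these arrays alone gives opposite signs. The same limit holds for *Acvr1* and, with a low value in these arrays, for *Chrd*. *Smad5*, which acts beside *Smad1*, read 5.83, 5.89 and 5.73, with -0.16 with STEE, and -0.12 at its next probe set. Its dimmest probe set, at 4.11, 4.19 and 4.20, differed by 0.01 with STEE.

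*Smad4*, the common partner of the receptor-regulated Smads, differed by -0.09 between the strains at its brightest probe set (8.11, 8.02 and 8.00) and by 0.10 and 0.12 at its other probe sets. Of the inhibitory Smads, *Smad7* read 6.40, 6.45 and 6.25, lower with STEE by -0.20 (1.15-fold), and its other probe set 5.32, 5.45 and 5.35, lower by -0.10. *Smad6*, which blocks BMP signals, was dim, with 2.81, 2.67 and 2.83 at its only probe set. Its differences of -0.14 between the strains and 0.16 with STEE lie in a range of signal where the array resolves little.

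The Id genes, which encode inhibitors of basic helix-loop-helix factors, did not share a direction. *Id2* read 9.54 in SAMR1, 9.59 in SAMP8 control and 9.75 with STEE. Its next probe set read 8.42, 8.59 and 8.76, and its dim one 3.27, 3.40 and 3.45, so the order SAMR1, SAMP8 control, STEE-fed SAMP8 was the same at all 3 and the second was past the threshold between STEE-fed SAMP8 and SAMR1, at 0.34. *Id3* ran the other way, with 6.60, 6.42 and 6.26 at its only probe set, which is -0.18 between the strains, -0.16 with STEE and -0.34 between STEE-fed SAMP8 and SAMR1 (1.27-fold lower). *Id1* read 5.80, 5.95 and 5.92 at its only probe set. *Id4* read 8.84, 8.91 and 8.82, and its 4 probe sets differed by -0.02 to 0.12 between the strains and by -0.17 to -0.01 with STEE.

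Between STEE-fed and control SAMP8, the comparison of the extract with water, 0 of the 38 genes were past the threshold, against 2.62% of all genes (1.4% higher and 1.22% lower). Of the 85 probe sets, 1 was past it (1.18%), the dim *Bmpr2* probe set, against 2.67% of all probe sets. By sign 15 genes were higher, 22 lower and 1 level, with a median of -0.02 against 0.00 over all genes. The range was -0.23 (*Acvr1*) to 0.24 (*Chrd*, the nearest to the threshold), where the 5th and 95th percentiles of all genes were -0.16 and 0.16. The larger differences short of the threshold were *Smad7* at -0.20, *Smad1*, *Smad5* and *Id3* at -0.16, and *Smad6* and *Id2* at 0.16.

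**Figure D3:**
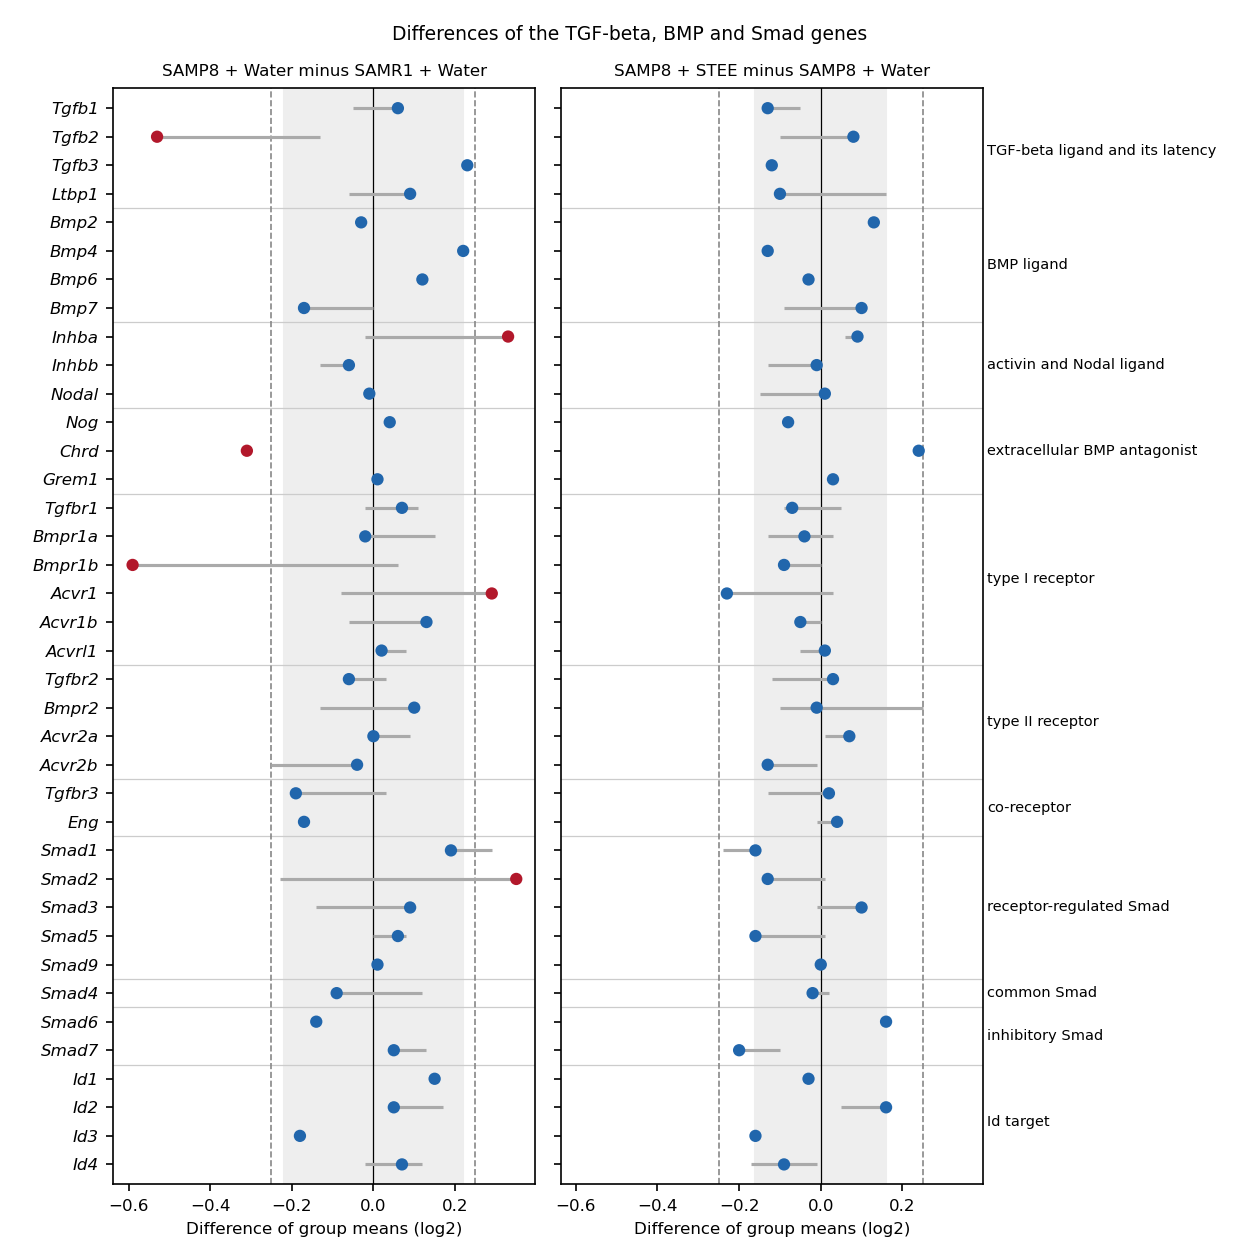
Difference of group means (log2, horizontal axis) of the 38 genes at their brightest probe set, for SAMP8 + Water minus SAMR1 + Water and for SAMP8 + STEE minus SAMP8 + Water, with points past the threshold in red, grey bars over the range of a gene's probe sets and grey shading from the 5th to the 95th percentile of all genes. In the strain comparison 6 genes lie beyond the dashed lines at 0.25 either way, with *Bmpr1b* at -0.59 and *Smad2* at 0.35 as the ends, and in the STEE comparison none does.

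STEE-fed SAMP8 and SAMR1 share no arrays, and between them 4 of the 38 genes were past the threshold (10.5%), against 8.88% of all genes. *Inhba* was higher, at 0.42, where 5.35% of all genes were higher. *Bmpr1b* at -0.68, *Tgfb2* at -0.45 (1.37-fold lower) and *Id3* at -0.34 were lower, where 3.53% of all genes were lower. With the median over probe sets 2 genes were past the threshold (5.26%, against 6.69% of all genes). The nearest gene outside was *Smad2* at 0.22. Of the 85 probe sets 10 were past the threshold (11.8%), 3 higher and 7 lower, against 9.45% of all probe sets. The 38 genes were split evenly by sign, with 18 higher, 18 lower and 2 level and a median of 0.00, against -0.01 over all genes.

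Second readings by other probe sets varied for the array as a whole. Over 10574 genes with several probe sets, the strain differences of the 2 brightest probe sets of a gene were apart by a median of 0.10. Of 1024 such genes past the threshold in the strain comparison, the next brightest probe set had the same sign in 74.6% and was also past the threshold in 29.8%. Among the 6 pathway genes past it, the next brightest probe set of *Tgfb2* was past it in the same direction. That of *Bmpr1b* was at -0.05, that of *Inhba* at -0.02, that of *Acvr1* at -0.08 and that of *Smad2* at -0.23, while *Chrd* had no other.

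Beyond the 38 genes, 101 of 106 further genes of the pathway were measured, 64 of them above the overall median signal. This list too was drawn up with earlier results of these data known, so its shares are no independent evidence about the pathway. In SAMP8 control vs. SAMR1, 14 of the 101 were past the threshold (13.9%, against 8.09% of all genes), 7 higher and 7 lower, with a median of 0.00. With the mean or the median over probe sets 7 were past it (6.93%, against 5.82% and 5.79%). The 14 past the threshold at the brightest probe set comprised 0 of 18 ligands, 2 of 8 receptors and co-receptors and 6 of 26 extracellular regulators. The rest were 1 of 29 intracellular regulators (3.45%) and 5 of 20 common target genes. Of the 6 extracellular regulators past it, 5 were lower. *Sostdc1*, a BMP and Wnt antagonist, read 4.30, 3.81 and 3.79 (-0.49), *Dcn* (decorin, also a meningeal marker) 6.50, 6.14 and 6.24 (-0.36), *Ltbp3*, a partner of latent TGF-beta, 7.04, 6.74 and 6.82 (-0.30), *Sost* 3.03, 2.76 and 2.76 (-0.27) and *Crim1*, which binds BMPs, 6.80, 6.53 and 6.84 (-0.27). *Fst*, which encodes the activin-binding follistatin, was the exception, with 3.65, 4.02 and 4.12 (0.37). *Fst*, *Sost* and *Sostdc1* were, on average over the groups, below the overall median signal of the array.

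Of the further receptors and co-receptors, *Acvr1c*, which encodes ALK7, read 6.30, 6.64 and 6.63 (0.34), and *Rgmb*, a BMP co-receptor, 6.92, 6.61 and 6.60 (-0.31). The intracellular regulator past the threshold was *Pmepa1*, a TGF-beta-induced inhibitor of the pathway, with 6.52, 6.80 and 6.84 (0.28). Of the target genes, *Klf10* (5.60, 6.47 and 5.51), *Cdkn1a* (6.09, 6.68 and 6.71), *Ctgf* (6.16, 6.63 and 6.33) and *Gadd45b* (5.48, 5.84 and 5.08) were higher in SAMP8 control by 0.87, 0.59, 0.47 and 0.36. *Tgfbi*, an extracellular matrix protein gene, was lower by -0.43 (4.10, 3.67 and 3.65), with all these means below the overall median signal. The target genes are not specific to the pathway: *Klf10*, *Junb* and *Gadd45b* are also induced by neuronal activity, and *Cdkn1a* by p53. *Gadd45b* is also among the genes the study displayed from these same samples, so its values are no independent evidence of a direction.

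With STEE, 5 of the 101 genes were past the threshold (4.95%, against 2.62% of all genes), 1 higher and 4 lower, again with a median of 0.00. The 5 include the activity-induced *Klf10*, *Gadd45b* and *Junb*, so the share is not read as a response of the pathway. *Crim1* was higher by 0.31, which placed STEE-fed SAMP8 at 0.04 from SAMR1. Here too both comparisons use the SAMP8 control arrays, so a low or high value in these arrays alone gives opposite signs. The 4 that were lower were target genes: *Klf10* (-0.96), *Gadd45b* (-0.76), *Junb* (-0.69) and *Ctgf* (-0.30). *Junb* read 6.06, 5.88 and 5.19, with a strain difference of -0.18, so both of its differences had the same sign. Set against SAMR1, STEE-fed SAMP8 stood at -0.87 for *Junb* and -0.40 for *Gadd45b*, both past the threshold. For *Klf10* and *Ctgf* it stood at -0.09 and 0.17, short of it. None of the further ligands, receptors or intracellular regulators was past the threshold with STEE. Between STEE-fed SAMP8 and SAMR1, 14 of the 101 were past it (13.9%, against 8.88% of all genes), 4 higher and 10 lower, and with the mean over probe sets 8 were (7.92%, against 6.68%). *Lefty1* (-0.28), *Fstl5* (-0.25) and *Hipk2* (-0.25) passed it in that comparison alone.

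**Figure D4:**
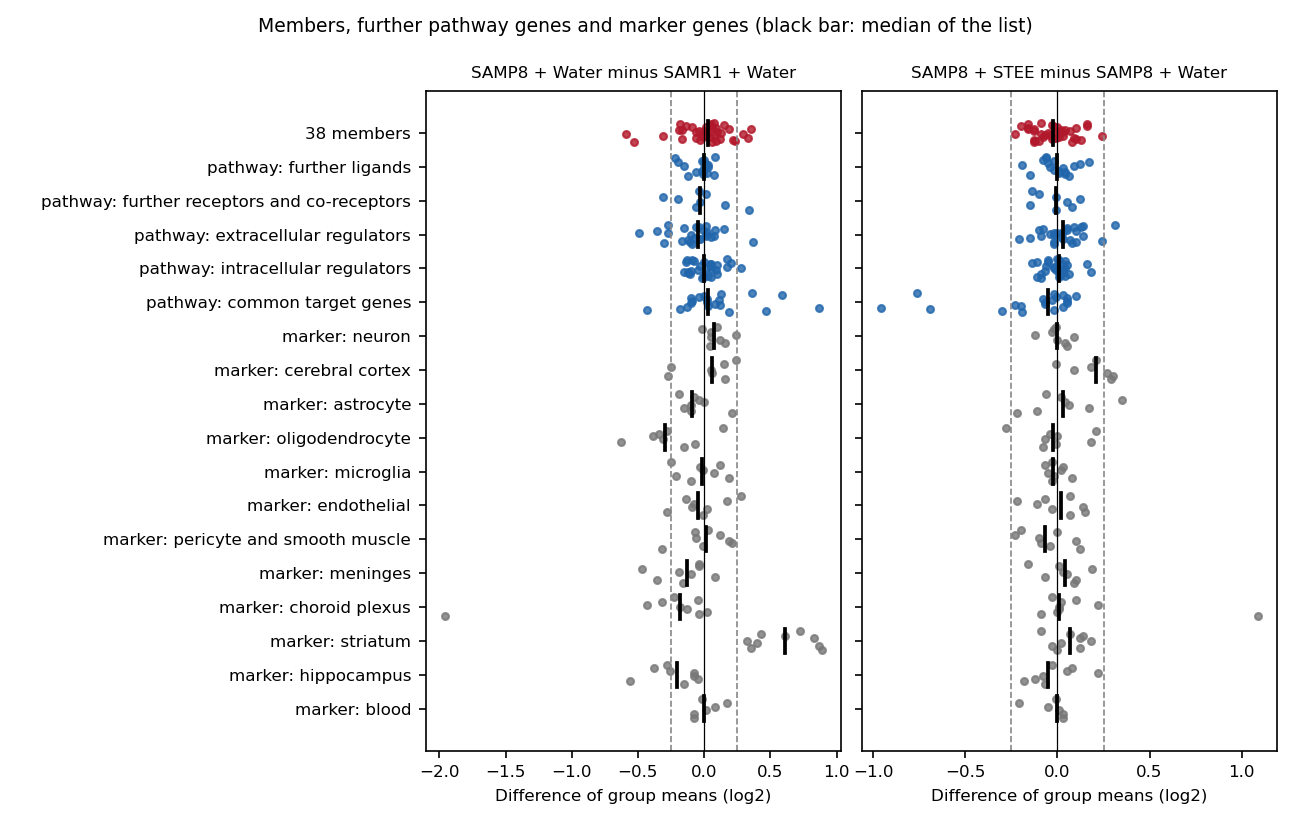
Each point is a gene, placed by its difference of group means (log2, horizontal axis) for SAMP8 + Water minus SAMR1 + Water and for SAMP8 + STEE minus SAMP8 + Water, in rows for the 38 genes, the further pathway genes by class and the marker lists, with a black bar at the median of each row and dashed lines at 0.25 either way. The rows of pathway genes are centred near 0, the 9 striatal genes all lie right of the threshold between the strains (median 0.61), and 3 target genes lie at -0.69 or below with STEE.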

How the data were processed

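Cortical RNA of 6 mice was hybridised to Affymetrix mouse arrays. Per the methods, the authors summarised the scans with RMA in Affymetrix Expression Console and compared the groups in Transcriptome Analysis Console. They deposited log2 group means for 45077 probe sets, named bi-weight averages and rounded to 2 decimals, beside fold changes, ANOVA p-values and FDR p-values of their own comparisons, which were not used. RMA places all arrays on a common distribution, and an average over a group hides the spread between mice. A genome build for the probe sets is not given in the sources used here.

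Gene symbols were taken as deposited. Differences of means were computed at the brightest probe set of a gene with Python 3.11.15, numpy 2.4.6, pandas 2.3.3 and matplotlib 3.10.9, and the counting was checked on simulated data. The number of arrays limits the precision. The genes described in full are those past 0.25 at any probe set in any comparison, *Smad1*, *Smad6*, *Acvr1*, *Nodal*, the member of each role with the highest signal, and the further pathway genes past 0.25. The members and lists were chosen with earlier results of these data known, and 1 gene of the cerebral cortex list is not reported here, for a reason other than its values. Alternatives were other summaries over probe sets, call sizes, scalings and a filter on dim probe sets.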

Additional observations from a re-analysis of the deposited data

How the results depend on the processing

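No paired analysis was possible because the values used are group means, and for the same reason no mouse could be left out in turn. In SAMP8 control vs. SAMR1 the count of 6 of the 38 genes became 2 with the mean over the probe sets of a gene (*Tgfb2* and *Chrd*), 3 with the median over them (*Acvr1* besides), 14 at a threshold of 0.15 (36.8%, against 22.1% of all genes) and 2 at 0.4 (*Tgfb2* and *Bmpr1b*, 5.26% against 2.64%). With STEE the count of 0 became 8 at 0.15 (21.1% against 12.9%) and 1 (*Acvr1*) when the median difference of probe sets of similar brightness was subtracted (2.63%, against 2.53% of all genes), which also moved the median of the 38 genes from -0.02 to -0.04. Between STEE-fed SAMP8 and SAMR1 the count of 4 became 2 with the median over probe sets and 10 at 0.15 (26.3% against 23.8%). Of the 101 further pathway genes, 14 became 7 with the mean and 7 with the median over probe sets between the strains (6.93%, against 5.82% and 5.79% of all genes), and 14 became 8 and 9 between STEE-fed SAMP8 and SAMR1 (7.92% and 8.91%, against 6.68% and 6.69%). Without probe sets that may match several transcripts, *Smad2* was no longer past the threshold between the strains. It was then read at its other probe set, where the difference had the opposite sign, -0.23 in place of 0.35. Centring each group on its median changed none of these counts of the 38 genes. Of the 114 differences of single genes, 12 had the opposite sign with the mean over probe sets and 11 with the median, none of them past the threshold before. With the median *Acvr1* went from -0.23 to 0.02 with STEE, and between the strains *Smad4* went from -0.09 to 0.10 and *Bmpr2* from 0.10 to -0.08.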
